A study of Bos taurus with 8 samples.

Results

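T-box factors are transcription factors that bind DNA through a shared domain, the T-box, and many of them set the identity of limb, heart and axial tissues in the embryo. *Tbx4* and *Tbx5* start the outgrowth of the hindlimb and forelimb, *Tbx2* and *Tbx3* are mainly repressors, and *Tbx15* and *Tbx18* act in the skeleton and in mesenchyme. The study also searched the open chromatin of these cells for binding motifs, those of T-box factors included, and that experiment was not analysed here. Here the members were 9 named genes (*Tbx1*, *Tbx2*, *Tbx3*, *Tbx4*, *Tbx5*, *Tbx6*, *Tbx15*, *Tbx18* and *Tbx20*), chosen by symbol, and 8 of them were found by name among the 24596 genes of the count table. *Tbx1* has no row under that symbol and was not analysed here. All 8 passed the filter on low counts, and so were among the 12857 genes tested.

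The cells were wild-type chondrocytes from the knee joints of calves 1 to 2 weeks old, isolated either from the superficial zone (SZCs), where lubricin is made, or from the deep zone (DZCs), and all were cultured for 3 days in medium with serum and no other treatment. RNA-Seq was done on 2 libraries per zone, which the methods call biological duplicates without saying whether they came from separate calves. Each difference is given as the log2 fold change of SZCs over DZCs (LFC) with its standard error (SE), and was tested by the exact test of edgeR with Benjamini–Hochberg adjustment over all tested genes (FDR). Levels are in CPM, counts scaled to library totals that were corrected by trimmed means of *M* values, and since they were not divided by transcript length, they are compared between libraries and not between genes.

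The libraries held 19918970 to 21890549 counts, and 3 counts, used here as the limit of detection, correspond to 0.129 to 0.187 CPM. The zone labels were checked with *Prg4*, which encodes lubricin and was at 3166 and 2024 CPM in SZCs against 15.3 and 61.5 CPM in DZCs. The chondrocyte genes *Sox9* (LFC -0.05, SE 0.52) and *Acan* (-0.58, SE 0.59) did not pass (edgeR exact test, FDR 1 and 0.966), and *Col2a1* was higher in both DZC libraries (-1.91, SE 0.59, edgeR exact test FDR 0.0658). The DZC libraries were less alike than the SZC libraries. Across genes, the correlation of log2 levels was 0.978 between the SZC libraries and 0.931 between the DZC libraries, and DZC replicate 2 correlated with SZC replicate 2 at 0.959. Fold changes are therefore also given without DZC replicate 1 and without DZC replicate 2.

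Of the 8 T-box genes measured, *Tbx2*, *Tbx4*, *Tbx5* and *Tbx15* were higher in SZCs at an FDR below 0.05, and 0 were higher in DZCs at that threshold in edgeR's exact test. DESeq2 and an unadjusted p-value below 0.05 likewise gave 0 members higher in DZCs. Among all tested genes, 2.93% passed, made up of 2.23% that were higher in SZCs and 0.700% that were higher in DZCs. Both SZC libraries lay above both DZC libraries for 6 members, an order seen in 21.0% of all tested genes. The reverse order was seen for *Tbx6* alone, against 20.5% of all tested genes, and for *Tbx20* the zones overlapped. The median LFC of the 8 members was 1.65, against -0.04 over all tested genes. In bulk RNA, fewer cells that express a gene and less of its RNA per cell cannot be told apart, and this holds for each value that follows.

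**Figure D1:**
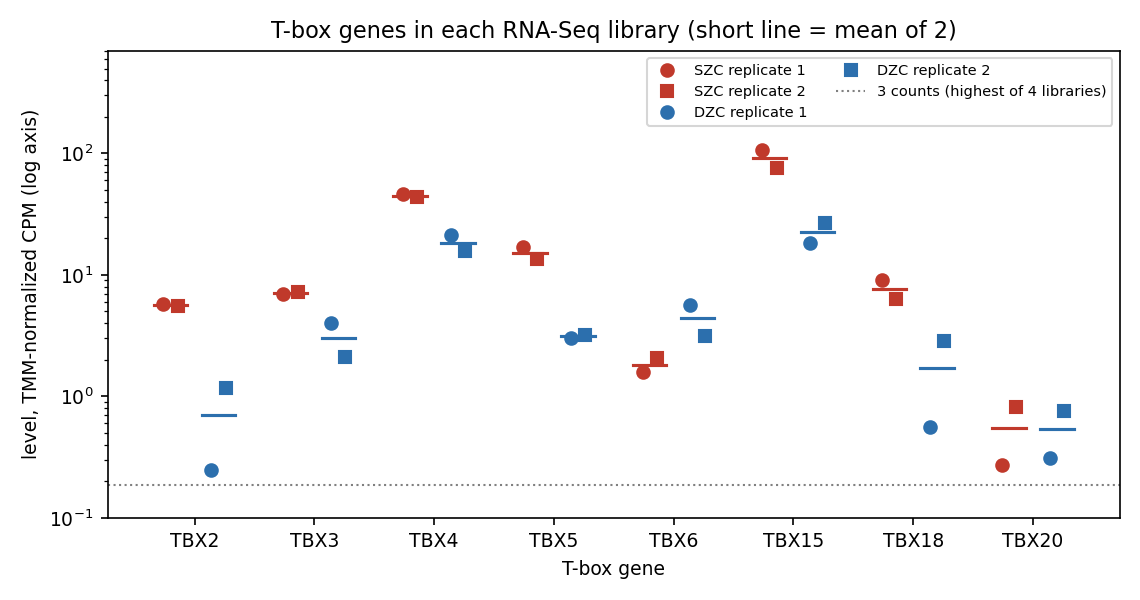
Level of each T-box gene in the 4 RNA-Seq libraries, in TMM-normalized CPM on a log axis, with red for SZCs, blue for DZCs, circles for replicate 1, squares for replicate 2 and a short line at the mean of each zone. The dotted line marks 3 counts in the library where that level is highest (0.187 CPM). The red symbols lie above the blue ones for *TBX2*, *TBX3*, *TBX4*, *TBX5*, *TBX15* and *TBX18* and below them for *TBX6*.

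These calls were lost in another test of the same package. Quasi-likelihood testing in edgeR left 0 of the 12857 genes and so 0 members below the threshold, with 1126 genes and 6 members at an unadjusted p-value below 0.05, while DESeq2 called 397 genes and the same 4 members. On counts simulated with known changes, 26.4% of the calls of edgeR's exact test and 28.5% of those of DESeq2 were false. For the quasi-likelihood test this share was 13.8%. The quasi-likelihood FDR from edgeR was 0.323 for *Tbx2*, 0.244 for *Tbx4*, 0.144 for *Tbx5* and 0.175 for *Tbx15*. When the replicate number entered that test as a block, 2.70% of tested genes passed, these 4 members among them. With 1 SZC library left out, the spread within a zone comes from the DZC pair alone, and the number of members called fell to 0 without SZC replicate 1 and to 1 (*Tbx15*) without SZC replicate 2. The calls over all genes fell too, to 58 of 13302 and 150 of 13248. They rose to 891 of 13353 without DZC replicate 1 and 2725 of 13144 without DZC replicate 2, against which members that passed there are to be read.

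**Figure D2:**
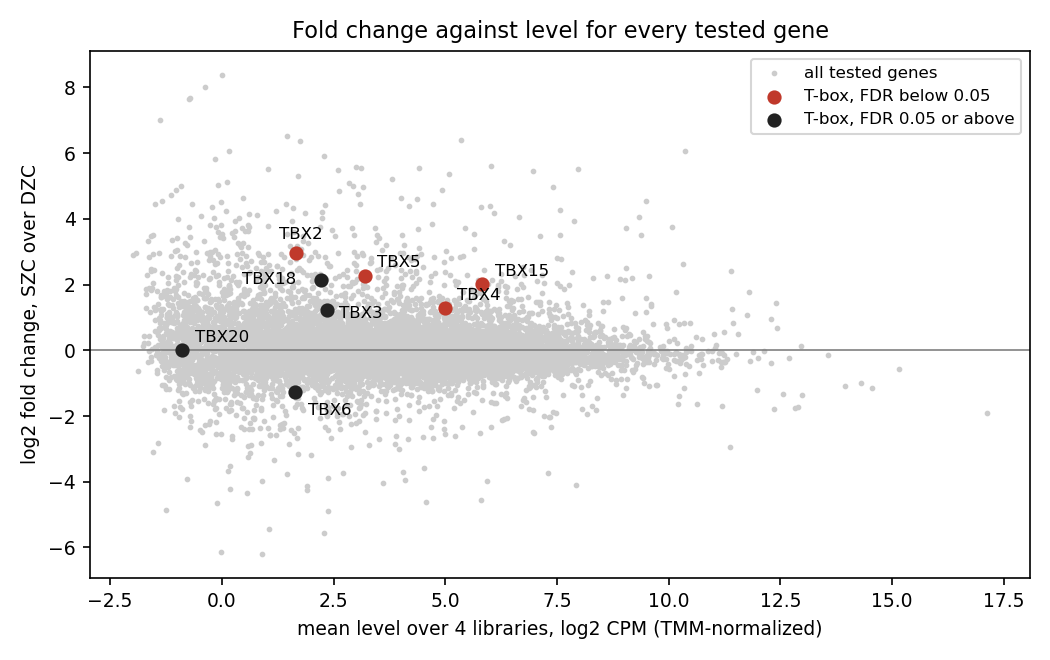
Log2 fold change of SZCs over DZCs against the mean level over the 4 libraries (log2 CPM) for all 12857 tested genes (grey), with the T-box genes in red where the FDR was below 0.05 and in black where it was not. The 4 red genes have log2 fold changes from 1.29 to 2.95.

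*Tbx5*, which acts in forelimb and heart and is mutated in Holt–Oram syndrome (ENSBTAG00000011384), received 371 and 315 counts in SZCs but 49 and 72 in DZCs. That is 16.9 and 13.6 CPM against 3.05 and 3.23 CPM, so the zones were well apart and the DZC libraries nearly equal. The means were 15.2 ± 2.32 CPM (SD, n = 2) and 3.14 ± 0.127 CPM (SD, n = 2). This is a 4.84-fold difference, with an LFC of 2.27 (SE 0.46, edgeR exact test FDR 0.000283). The LFC stayed between 2.11 and 2.42 whichever library was left out.

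*Tbx4*, the gene that marks the hindlimb, of which the knee is a part, and that is mutated in small patella syndrome (ENSBTAG00000009968), received 1016 and 1013 counts in SZCs and 341 and 349 in DZCs. It was at 46.2 and 43.6 CPM in SZCs against 21.2 and 15.6 CPM in DZCs. Thus *Tbx4* was well measured in both zones and differed 2.44-fold, with an LFC of 1.29 (SE 0.36, edgeR exact test FDR 0.0211). The change was between 1.10 and 1.53 with each library left out.

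Within each library, the log2 ratio of *Tbx5* to *Tbx4* counts was -1.45 and -1.68 for SZCs, compared with -2.79 and -2.27 for DZCs. The ratio depends on the lengths of both transcripts, but its difference between the zones does not. Both SZC ratios lay above both DZC ratios, by 0.96 on average, so *Tbx5* differed between the zones by more than *Tbx4* in every pair of libraries. In a two-sided exact permutation test p was 0.333, the smallest possible with 2 libraries against 2 (0.5 after adjustment over the 3 ratios compared here), and a difference between these genes is therefore not established.

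*Tbx2*, a repressor known for holding back cell cycle inhibitors (ENSBTAG00000014278), had 126 and 128 counts in SZCs but only 4 and 26 in DZCs. In CPM these are 5.72 and 5.51 against 0.249 and 1.17. The SZC libraries were nearly equal, while DZC replicate 1 was close to the level of 3 counts in that library, 0.187 CPM. *Tbx2* had the largest fold change of the 8 members, 7.71-fold, with an LFC of 2.95 (SE 0.80, edgeR exact test FDR 0.0197). Its size depended on the DZC library used, with an LFC of 2.27 without DZC replicate 1 and 4.48 without DZC replicate 2. With scaling by library totals and no TMM factors, the call was lost at an LFC of 3.12 (edgeR exact test FDR 0.106).

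*Tbx3*, the close relative of *Tbx2* whose loss of function causes ulnar–mammary syndrome (ENSBTAG00000021706), had 154 and 169 counts in SZCs against 64 and 47 in DZCs. Levels of 6.996 and 7.28 CPM in SZCs and 3.98 and 2.11 CPM in DZCs did not overlap. The LFC of 1.24 (SE 0.58, 95% interval 0.10 to 2.37) did not pass (edgeR exact test FDR 0.466). Without DZC replicate 1, *Tbx3* passed, with an LFC of 1.76 (edgeR exact test FDR 0.0164), and without DZC replicate 2 it was at 0.86 (FDR 0.225).

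The log2 ratio of *Tbx2* to *Tbx3* counts was -0.29 and -0.40 for SZCs, compared with -3.84 and -0.84 for DZCs. SZC values exceeded DZC values by 2.00 on average, without overlap (two-sided exact permutation test, p = 0.333, the smallest possible, and 0.5 after adjustment). The mean in DZCs was -2.34 ± 2.12 (SD, n = 2), and without DZC replicate 1 the difference fell to 0.50.

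*Tbx15*, required for normal growth of the skeleton (ENSBTAG00000007767), had 2351 and 1755 counts in SZCs and 292 and 600 in DZCs, the most of any member in each library but DZC replicate 1. *Tbx15* stood at 107 and 75.6 CPM in SZCs and at 18.2 and 26.9 CPM in DZCs, so the lowest SZC library was still well above the highest DZC library. The means of 91.2 ± 22.1 CPM (SD, n = 2) and 22.5 ± 6.17 CPM (SD, n = 2) correspond to a 4.04-fold difference. The LFC was 2.02 (SE 0.40), and its edgeR exact test FDR of 0.000128 was the lowest of the members. Of the 4 members called, *Tbx15* alone also passed without SZC replicate 2.

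*Tbx18*, which belongs to the same branch of the family as *Tbx15* and is known from the sclerotome, the epicardium and mural cells of vessels (ENSBTAG00000018161), had 198 and 146 counts in SZCs against 9 and 64 in DZCs. The corresponding levels were 8.995 and 6.29 CPM against 0.560 and 2.87 CPM. There was no overlap, but as a ratio the DZC libraries differed from each other by more than the SZC libraries did. The LFC of 2.14 (SE 0.82, 95% interval 0.53 to 3.75) did not pass (edgeR exact test FDR 0.237), although it was larger than those of *Tbx4* and *Tbx15*. Without DZC replicate 2, it was 3.77 and passed (edgeR exact test FDR 1.57e-06), and without DZC replicate 1 it was 1.42.

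The log2 ratio of *Tbx18* to *Tbx15* counts was nearly the same in both SZC libraries, at -3.57 and -3.58, and was -4.94 and -3.22 in the DZC libraries. The zones overlapped, with a mean difference of 0.51 (two-sided exact permutation test, p = 1), and without DZC replicate 1 the difference changed sign to -0.36.

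*Tbx6*, a gene of the presomitic mesoderm (ENSBTAG00000009046), was the only member that was higher in both DZC libraries. It had 35 and 48 counts in SZCs but 91 and 70 in DZCs, or 1.59 and 2.07 CPM against 5.66 and 3.14 CPM. The LFC was -1.26 (SE 0.64, 95% interval -2.51 to -0.01), and did not pass (edgeR exact test FDR 0.586). It passed without DZC replicate 2, with an LFC of -1.61 (edgeR exact test FDR 0.0297), and was at -0.77 without DZC replicate 1 (FDR 0.666).

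*Tbx20*, a regulator of heart development (ENSBTAG00000017541), was near the limit of detection, with 6 and 19 counts in SZCs and 5 and 17 in DZCs. At 0.273 and 0.819 CPM in SZCs and 0.311 and 0.762 CPM in DZCs, the replicates of each zone differed by more than the zones did. The LFC was 0.01 (SE 0.93, edgeR exact test FDR 1), and its 95% interval of -1.81 to 1.82 does not exclude a difference of the size seen for *Tbx4*.

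**Figure D3:**
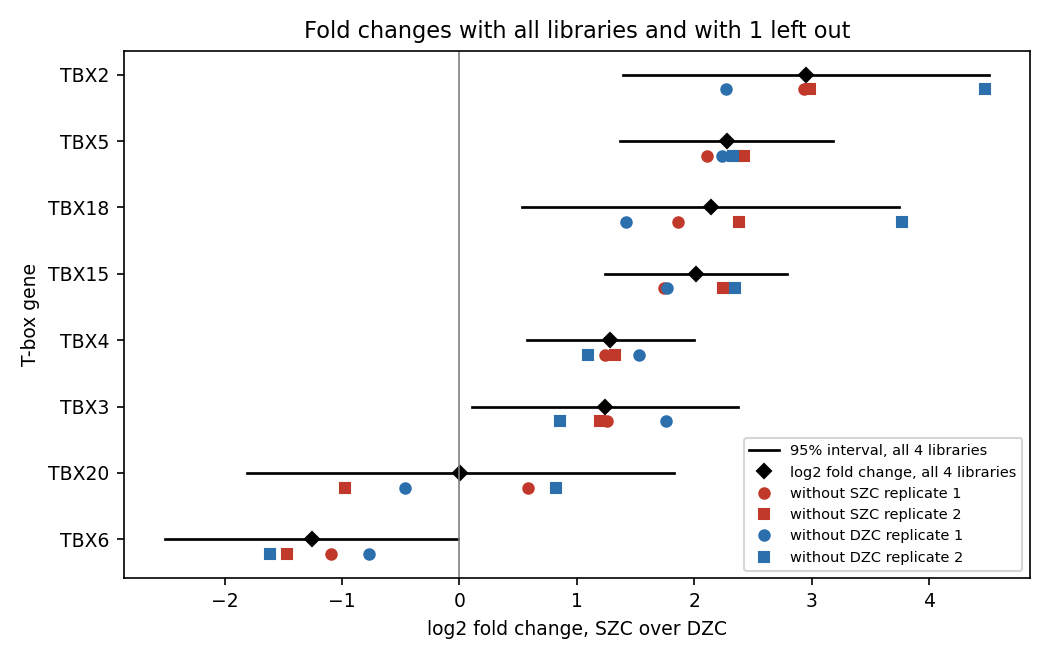
Log2 fold change of SZCs over DZCs for each T-box gene. Black diamonds and bars give the value and 95% interval from all 4 libraries, and colored symbols below them give the value without each library in turn (red for an SZC library left out, blue for a DZC library, circles for replicate 1, squares for replicate 2). *TBX2* spans 2.27 to 4.48 and *TBX18* spans 1.42 to 3.77, while *TBX5* stays between 2.11 and 2.42.

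The members differed in how they varied between the DZC libraries. *Tbx2*, *Tbx5*, *Tbx15*, *Tbx18* and *Tbx20* were higher in DZC replicate 2 than in DZC replicate 1, and *Tbx3*, *Tbx4* and *Tbx6* were lower, while 51.0% of all tested genes were higher in replicate 2. Relative to the SZC mean of the same gene, *Tbx2* was at 4.43% in DZC replicate 1 and 20.7% in replicate 2, and *Tbx18* was at 7.33% and 37.5%. *Tbx5* was at 20.04% and 21.2%, and *Tbx4* at 47.2% and 34.8%.

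Of 5 markers of the superficial zone, 4 were likewise higher in DZC replicate 2, namely *Prg4* (0.590% and 2.37% of the SZC mean), *Epha3* (0.592% and 3.52%), *Wif1* (0.188% and 4.61%) and *Thbs4* (4.31% and 7.68%). *Vit* was lower there (3.37% and 1.17%). All 5 markers passed in the direction of SZCs by edgeR's exact test, with LFCs from 4.06 to 6.08 (DESeq2 called 4, with *Wif1* left at an FDR of 0.053). The study names these markers as higher in SZCs in the same RNA-Seq data. Their passing and their low share in DZCs are therefore no independent results. The summed level of the list was 4754 and 3591 CPM in SZCs against 76.7 and 163 CPM in DZCs. The highest level of any of these markers in a DZC library was 7.68% of its SZC mean. *Tbx2* (4.43%) and *Tbx18* (7.33%) lay below that in DZC replicate 1 and above it in DZC replicate 2 (20.7% and 37.5%). *Tbx3*, *Tbx4*, *Tbx5* and *Tbx15* were at 19.9% or more in each DZC library. The part that a mixture of zones has in the T-box values was not tested.

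**Figure D4:**
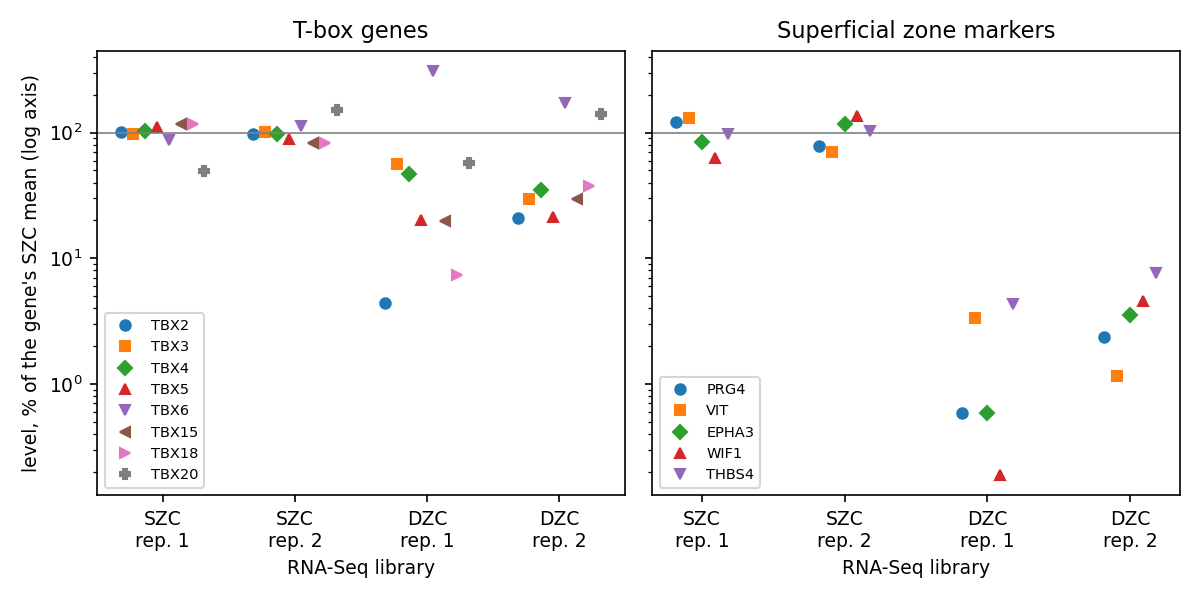
Level of each gene in each library as a percentage of its mean in SZCs (log axis), for the 8 T-box genes (left) and 5 superficial zone markers (right), with each symbol standing for 1 gene. The superficial zone markers are at 0.188% to 7.68% in the DZC libraries, while the T-box genes range from 4.43% (*TBX2*) to 310% (*TBX6*) there.

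Cells of other types were followed by marker lists, since several members are also expressed outside cartilage. Of 9 pericyte and mural cell genes, *Kcnj8*, a potassium channel subunit, was higher in SZCs (LFC 2.84, SE 0.77, edgeR exact test FDR 0.0256), and the other 8 did not pass. However, 8 of the 9 had positive LFCs, with a median of 1.42 over the list, and 4 (*Kcnj8*, *Notch3*, *Pdgfrb* and *Abcc9*) had an unadjusted p-value below 0.05 in edgeR's exact test, all higher in SZCs. Over all tested genes, 5987 of 12857 had positive LFCs and 1169 had such a p-value. *Acta2*, a smooth muscle actin, went the other way, at 11.5 and 93.2 CPM in SZCs against 53.2 and 311 CPM in DZCs (LFC -1.80, SE 1.08, edgeR exact test FDR 0.779). With each library left out, 0 to 6 of the 9 passed, the 6 without DZC replicate 2. *Rgs5*, a defining gene of pericytes, had 20 and 26 counts in SZCs against 0 and 9 in DZCs. The summed level of that list was 2598 and 2178 CPM in SZCs and 2430 and 2038 CPM in DZCs, most of it from *Cspg4* (1690 to 2533 CPM), a proteoglycan that chondrocytes also make. Among 5 synovial fibroblast genes, *Vcam1*, an adhesion molecule, was higher in SZCs (LFC 3.51, SE 0.54, edgeR exact test FDR 1.80e-06) and the other 4 did not pass. *Cd55*, a complement regulator of the synovial lining, had 739 and 620 counts in SZCs against 4 and 112 in DZCs (LFC 3.51, SE 1.06, edgeR exact test FDR 0.0943), while *Pdpn* was higher in both DZC libraries (LFC -0.98, SE 0.40, edgeR exact test FDR 0.254). DESeq2 called 2 of these 5 genes, as did the quasi-likelihood test with the replicate block. With either DZC library left out, more of the 5 passed than with all libraries, and calls over all genes rose as well. An unadjusted p-value below 0.05 in edgeR's exact test was seen for 3 of them, 2 higher in SZCs. The median LFC of the list was 0.75, and it summed to 1484 and 1355 CPM in SZCs against 1297 and 1367 CPM in DZCs. The part of such cells in the T-box values was not tested.

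In the remaining lists, genes passed among the chondrocyte markers only, in edgeR's exact test on all 4 libraries. With either DZC library left out, genes of other lists passed too, and calls over all genes rose as well. All 10 chondrocyte genes had negative LFCs, with a median of -1.11, and 5 had an unadjusted p-value below 0.05 in edgeR's exact test. DESeq2 called 4 of them and 0 endothelial, immune, tendon or bone genes, while 1 endothelial, 1 immune and 1 bone gene had an unadjusted p-value below 0.05 in edgeR's exact test. Of 4 endothelial genes, 2 were tested, among them the receptor *Kdr* (35 and 83 counts in SZCs, 0 and 15 in DZCs, edgeR exact test FDR 0.435), and the list summed to 2.32 and 7.20 CPM in SZCs and 0.187 and 1.97 CPM in DZCs. Of 4 blood and immune genes, 3 were tested, with *Cd14* at 264 and 374 counts in SZCs and 63 and 147 in DZCs (edgeR exact test FDR 0.142), and the sums were 17.0 and 27.1 CPM against 6.28 and 12.1 CPM. The 5 cardiac muscle genes all failed the filter, and their sum was at most 1.42 CPM in any library. Of 3 tendon genes 2 were tested, with *Mkx* at an LFC of -0.58 (edgeR exact test FDR 0.669), and the sums were 37.6 and 40.3 CPM in SZCs and 56.7 and 57.7 CPM in DZCs. Of 6 hypertrophic and bone genes, 2 were tested, and the list summed to at most 1.91 CPM except in DZC replicate 2, at 69.2 CPM, where the collagenase *Mmp13* had 468 counts, against 0 in the other libraries. Among 10 chondrocyte genes, *Cnmd* (LFC -2.94, FDR 0.000917) and *Matn3* (-2.04, FDR 0.00212) were higher in DZCs (edgeR exact test) and the other 8 did not pass. The call of *Cnmd* was lost with the replicate block (edgeR quasi-likelihood FDR 0.0793) and that of *Matn3* with library totals (edgeR exact test FDR 0.109). The chondrocyte list summed to 136801 and 137482 CPM in SZCs against 536167 and 207526 CPM in DZCs.

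Most other T-box genes had few or no counts. Of 8 further members of the family, *Tbx22*, *Eomes* and *Tbxt* had 0 counts in all 4 libraries, which at 3 counts allows up to 0.129 to 0.187 CPM, and *Tbr1* had 1 count in all. *Tbx21*, a regulator of T cells, had 1 and 7 counts in SZCs and 0 in both DZC libraries, and *Tbx10* had at most 5 counts in any library. *Tbx19* (18 and 9 counts in SZCs, 10 and 15 in DZCs) and *Mga*, a large protein that joins a T-box to a domain for pairing with Max (1216 and 1242 counts in SZCs, 393 and 1117 in DZCs), were tested. Neither passed or had an unadjusted p-value below 0.05, with LFCs of -0.11 (FDR 1) and 0.54 (FDR 0.898) by edgeR's exact test. *Mga* was at 0.12 without DZC replicate 1 and passed at 1.17 without DZC replicate 2 (edgeR exact test FDR 0.00157).

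Genes around the T-box factors in the regulatory network were examined by list. Of 21 partners and co-regulators of T-box proteins, 13 were tested and 0 passed in edgeR's exact test, with a median LFC of 0.18, and 0 did so in DESeq2 or at an unadjusted p-value below 0.05. The quasi-likelihood test with the replicate block called 1, and leaving out each library called 0 to 3. *Chd4*, a chromatin remodeler, was at an LFC of 0.15 (edgeR exact test FDR 1). The cardiac partners *Nkx2-5* and *Gata4* had at most 3 counts in any library. Of 19 genes known as T-box targets in other tissues, 10 were tested and 0 passed in edgeR's exact test, in DESeq2 or at an unadjusted p-value below 0.05, with a median LFC of -0.18. *Gja1*, which encodes a gap junction protein, had 4001 and 6121 counts in SZCs against 539 and 4071 in DZCs (LFC 1.04, edgeR exact test FDR 0.86). Its LFC was 0.29 without DZC replicate 1 and 2.75 without DZC replicate 2 (edgeR exact test FDR 8.74e-11), where 3 of the target genes passed. Of 12 limb field genes, 10 were tested and 0 passed in edgeR's exact test, with 1 at an unadjusted p-value below 0.05 and a median LFC of -0.02. *Fgfr2*, a receptor for growth factors of the limb bud, was that gene, with an LFC of 1.33 (SE 0.43, edgeR exact test FDR 0.0788), and passed in DESeq2 (FDR 0.045) and with library totals (LFC 1.72, FDR 0.000906). It also passed without DZC replicate 1 (LFC 1.85) and without DZC replicate 2 (LFC 0.97), where 4 limb field genes passed.

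In the RefSeq annotation of ARS-UCD2.0, a later assembly than that of the counts, *Tbx3* and *Tbx5* are neighbors on chromosome 17, and *Tbx2* and *Tbx4* are neighbors on chromosome 19. In each of these pairs both genes had positive LFCs, 1.24 and 2.27 for *Tbx3* and *Tbx5* and 2.95 and 1.29 for *Tbx2* and *Tbx4*. Of the 4 genes that flank the pairs, 3 were tested and did not pass, and the gene beyond *Tbx2* was not analysed here. Beside *Tbx3* and *Tbx5*, *Med13l* was at an LFC of 0.44 (SE 0.40, FDR 0.939) and *Rbm19* at -0.10 (SE 0.38, FDR 1), and beside *Tbx4*, *Brip1* was at 0.17 (SE 0.99, FDR 1), all by edgeR's exact test. Reads were counted without regard to strand, so reads from overlapping genes on opposite strands could not be told apart by strand.

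For each of the 4 members called, the 3 tested genes with the most similar profile over the 4 libraries were found, by the root mean square difference of log2(CPM + 0.5) after centering each gene on its mean. The genes nearest to *Tbx2* were *Dlx3* (0.05), a homeobox gene, *Colec12* (0.08) and *Col14a1* (0.11), a collagen that associates with fibrils. In DZC replicate 1 *Tbx2* was at 0.249 CPM, so the added 0.5 CPM shapes its profile and these matches. Those nearest to *Tbx4* were *Dact1* (0.04), a modulator of Wnt signaling, *Dpf1* (0.04) and *Stk10* (0.05). *Tbx15* was nearest to *Mapk8ip1* (0.05), *Twsg1* (0.06), which encodes a BMP-binding protein, and *Cst6* (0.08). *Mapk8ip1* was at 0.747 and 1.34 CPM in DZCs, so the added 0.5 CPM shapes its profile too, and its LFC was 2.44, against 2.02 for *Tbx15*. The genes nearest to *Tbx5* were *Gsdmc* (0.05), *Akr1c4* (0.08) and *Tarsl2* (0.10). They were at most 0.314 CPM in DZCs, so that the added 0.5 CPM shapes their profiles as well. Their LFCs were 8.01, 5.82 and 3.20, against 2.27 for *Tbx5*. *Akr1c4* belongs to a family of near-identical genes whose reads may be shared. Among the members themselves, the closest pairs were *Tbx3* with *Tbx4* (0.15) and *Tbx5* with *Tbx15* (0.19), and the most distant pair was *Tbx2* with *Tbx6* (1.87). Likeness over 4 libraries is a description and has no test.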

How the data were processed

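RNA-Seq counts were analysed for 2 SZC and 2 DZC libraries, and the ATAC-Seq samples were not used here. The authors aligned reads of 75 bp from a single end with STAR 2.5.2b to UMD 3.1 of Ensembl, obtained counts per gene without regard to strand, and deposited these raw counts. Their deposited table of log2 fold changes and FDR values was read only to fill blank gene names. With edgeR 4.0.16 (R 4.3.3), genes were kept by filterByExpr, scaled by TMM and compared by the exact test at an FDR of 0.05 over all tested genes, as in the methods of the study, which name no filter. Standard errors and 95% intervals follow from the negative binomial model with gene-wise dispersion and a normal approximation. The depth of 19918970 to 21890549 counts per library sets a floor of 3 counts, and this floor covers counting error only. Members and gene lists were chosen with earlier results of these data known. Genes named in the text are the members, list genes that passed (or, where none did, the gene with the highest mean level), the 3 genes most like each member called and the genes that check the labels. Other list genes, such as those with low or 0 counts, and genes that flank members were named after their values were seen. Alternatives were the quasi-likelihood test with and without a replicate block, DESeq2 1.42.0, other filters, scalings and dispersions, and leaving out each library, in which case a lone library is assumed to vary like the other zone. The main exact test, DESeq2 and the quasi-likelihood test with and without the replicate block were run on simulated counts with known changes. The other fits and steps were not simulated. False calls made up 26.4% of calls for the exact test and 28.5% for DESeq2. For the quasi-likelihood test they made up 13.8%, and 15% with the block. All of these shares are above the FDR threshold of 0.05, so FDR values here may be too low. Sequences and transcript lengths were not used here.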

Additional observations from a re-analysis of the deposited data

How the results depend on the processing

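The number of members called was 4 under 6 of the 8 alternatives to the test, filter, scaling and dispersion, 3 with library totals (without *Tbx2*) and 0 in edgeR's quasi-likelihood test. That test called 0 genes in all, 0 higher in SZCs and 0 higher in DZCs, and gave log2 fold changes of 2.94 for *Tbx2* (FDR 0.323), 1.29 for *Tbx4* (FDR 0.244), 2.27 for *Tbx5* (FDR 0.144) and 2.02 for *Tbx15* (FDR 0.175). The cause was not tested. Scaling by library totals moved the median over tested genes up by 0.30 (log2). It left 44 genes higher in DZCs, against 90, so that 86.7% of calls were higher in SZCs, against 76.1%, and it put *Tbx2* at 3.12 (FDR 0.106), *Sox9* at 0.38 and *Rbm19* at 0.24.

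Libraries of the same number deviated together from the means of their zones (correlation 0.42 across 12857 genes). By the methods, superficial and deep slices were cut from the same cores and gathered by joint, but nothing states that a number marks a shared joint. In a paired analysis, with a replicate block, edgeR's quasi-likelihood test called 347 genes, against 0 without the block, and the same 4 members (FDR 0.0417 for *Tbx2*, 0.0443 for *Tbx4*, 0.0186 for *Tbx5* and 0.0169 for *Tbx15*). With this block *Tbx20* was at -0.010 and *Sox9* at 0.10.

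With each library left out, the members called ranged from 0 to 6, all genes called from 58 to 2725, those higher in SZCs from 52 to 1607 and those higher in DZCs from 6 to 1118. The log2 fold change ranged from 2.27 to 4.48 for *Tbx2*, 0.86 to 1.76 for *Tbx3*, 1.10 to 1.53 for *Tbx4*, 2.11 to 2.42 for *Tbx5*, -1.61 to -0.77 for *Tbx6*, 1.74 to 2.34 for *Tbx15*, 1.42 to 3.77 for *Tbx18* and -0.97 to 0.82 for *Tbx20*, which changed sign. Sign changes were also seen for *Sox9* (-0.56 to 0.79), *Acan* (-1.12 to 0.34), *Rbm19* (-0.29 to 0.087), *Brip1* (-0.63 to 2.29) and the zone difference of the log2 ratio of *Tbx18* to *Tbx15* (-0.36 to 1.37).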

Other observations

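On chromosome 3 of ARS-UCD2.0, *Tbx15* lies between *Wars2* and *Spag17*, a gene of motile cilia. Among the tested genes that flank members and are not members, *Spag17* alone passed in edgeR's exact test. *Med13l*, *Rbm19*, *Brip1*, *Ypel3*, *Ppp4c*, *Cep162*, *Gnb1l* and *Wars2* did not. *Spag17* had 45 and 47 counts in SZCs against 1 and 3 in DZCs, and was singled out after its values were seen. Its summed counts, 92 in SZCs and 4 in DZCs, give a ratio of 19.5 after division by the TMM-corrected library totals (95% exact interval 7.37 to 73.2, for counting error only), and edgeR's exact test gave an FDR of 0.000313. Over the 8 alternatives with all libraries its FDR ranged from 0.000226 to 0.185 and passed in 7, but the call was lost without SZC replicate 1 (FDR 0.258) and without SZC replicate 2 (FDR 0.164). In the same libraries *Tbx15* was at 107 and 75.6 CPM in SZCs and 18.2 and 26.9 CPM in DZCs. *Wars2* did not pass (FDR 1 by edgeR's exact test), with 282 and 337 counts in SZCs and 271 and 241 in DZCs.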
